A study of Drosophila melanogaster with 2 samples.

Results

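One-strand promoter peaks of Ftz-F1 outside the X chromosome are described here. They come from the authors' thresholded irreproducible discovery rate (IDR) list. IDR is a method that scores how alike regions rank in separate replicates. The list was the same as the strongest 3960 peaks, by signal value, of the list pooled from both replicates. A place in it does not by itself mean close ranks in both replicates. Peaks were taken where the summit lay within 500 bp of annotated transcript starts on one strand only. The rule used position and annotation, and no binding value. It took 1504 of the 3960 peaks in the list (38%, 95% Wilson interval 36.5 to 39.5). Binding was measured by chromatin immunoprecipitation sequencing of whole Drosophila melanogaster embryos, pooled males and females of 0 to 24 h, from the transgenic strain ftz-f1-GFP, in which Ftz-F1 carries eGFP at its C-terminus and an anti-GFP antibody pulls it down. All samples form 1 group of 2 biological replicates, numbered 1 and 4, and no other genotype, stage or treatment was part of the comparison. Whole embryos of all stages are mixed, so the tissue and the hour of a binding event are unknown, and whether untagged Ftz-F1 was also present is not given in the sources used here.

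Ftz-F1 is an orphan nuclear receptor, a zinc-finger transcription factor of the steroid receptor family that binds DNA as a monomer. In segmentation it works as a cofactor of Fushi tarazu, a homeodomain protein, and later it makes tissues competent to answer pulses of the steroid hormone ecdysone. Its known site is the receptor core AGGTCA with an extension on the 5' side, written here as CAAGGTCA. Fly promoters hold other known elements. The factor DREF binds TATCGATA and the factor M1BP binds GGTCACACT, and both are typical of genes active in most cells. The GAGA factor binds runs of GAGAGA and is known from developmentally regulated genes. The TATA box TATAAA and the initiator core TCAGT help to position RNA polymerase II. The E-box CAGCTG is bound by helix-loop-helix proteins.

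The sequences shown first are the strongest one-strand promoter peaks, among those eligible for printing, with CAAGGTCA within 100 bp of the summit. They show how differently the site can lie relative to the start. Each stretch is dm6 sequence from the release 6 reference assembly, 28 bases long, written 5' to 3' on the strand of the gene. Capitals mark the site, read as CAAGGTCA on the strand of the gene or as TGACCTTG where it lies on the other strand.
Pgk, chr2L:2748490-2748517, minus strand: accgacaaaaTGACCTTGcgctgacatt
Rac2, chr3L:7435471-7435498, minus strand: acgaccaaagCAAGGTCAagtaaagaga
lncRNA:CR44409, chr2L:17429864-17429891, plus strand: atttgcgcttCAAGGTCAcgcgcgtgag
Dph2, chr3R:14893767-14893794, minus strand: gagcagccggTGACCTTGgaacagatct
Ald1, chr3R:26259212-26259239, minus strand: gcttgttgctTGACCTTGttcaatgtca
CG2003, chr3R:31977848-31977875, plus strand: aatgtgtgctCAAGGTCAggcccgttga
Gs1l, chr2L:4456667-4456694, minus strand: cttccatcttTGACCTTGctgttggtga
CG8745, chr3L:13866478-13866505, minus strand: ctctggctgtCAAGGTCAggcggcatcc
In Pgk, which encodes the glycolytic enzyme phosphoglycerate kinase, and in Ald1, which encodes aldolase of the same pathway, the first base of the site lay at -20 and -16 bp from an alternative start. In Rac2, a small GTPase of the actin cytoskeleton, it lay at -298 bp, with the summit in an annotated intron. In Dph2, an enzyme of diphthamide synthesis, it lay at 170 bp, with the summit in a coding exon.

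The next sequences are the 100 bases directly upstream of the nearest start, shown because each holds an element that sets groups of these peaks apart in the results that follow. Capitals mark the element.
eEF1gamma, DREF site, chr3R:29220072-29220171, plus strand: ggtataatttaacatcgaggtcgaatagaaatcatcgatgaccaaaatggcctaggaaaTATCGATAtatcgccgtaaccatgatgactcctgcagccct
CG10038, DREF site, chr3R:12350645-12350744, minus strand: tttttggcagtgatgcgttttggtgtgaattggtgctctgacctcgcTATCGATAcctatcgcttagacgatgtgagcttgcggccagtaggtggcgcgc
Cyt-c-p, M1BP site, chr2L:16719832-16719931, plus strand: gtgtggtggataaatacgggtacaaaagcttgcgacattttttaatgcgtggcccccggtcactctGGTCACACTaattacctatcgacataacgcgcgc
Rpp30, M1BP site, chr2L:252374-252473, minus strand: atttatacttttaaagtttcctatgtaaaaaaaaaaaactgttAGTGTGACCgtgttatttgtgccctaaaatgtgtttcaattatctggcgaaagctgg
svp, GAGA site, chr3R:12281010-12281109, plus strand: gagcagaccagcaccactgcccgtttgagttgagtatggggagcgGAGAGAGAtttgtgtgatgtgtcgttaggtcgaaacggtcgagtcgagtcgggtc
E23, GAGA site, chr2L:3354830-3354929, minus strand: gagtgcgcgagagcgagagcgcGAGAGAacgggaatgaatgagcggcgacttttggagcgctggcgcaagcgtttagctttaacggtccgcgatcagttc
Dfd, GAGA site, chr3R:6791736-6791835, plus strand: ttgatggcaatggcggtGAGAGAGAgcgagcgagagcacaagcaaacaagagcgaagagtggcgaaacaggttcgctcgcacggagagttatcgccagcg
lncRNA:CR31044, TATA box, chr3R:29214462-29214561, plus strand: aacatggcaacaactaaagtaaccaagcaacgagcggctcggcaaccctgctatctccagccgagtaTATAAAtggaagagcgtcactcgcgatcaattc
The genes of the DREF and M1BP sequences include eEF1gamma, a subunit of translation elongation factor 1, Cyt-c-p, a cytochrome c, and Rpp30, a subunit of the nuclease that trims tRNA precursors. Those of the GAGA sequences are svp, a nuclear receptor of the COUP family, E23, an ABC transporter gene induced by ecdysone, and the Hox gene Dfd. The GAGA examples were added after the values were seen. Not every sequence that qualified is printed. A DREF site upstream of aux (signal value 221) and an M1BP site upstream of glec (186, above Rpp30 at 181) are not shown. The functions named here are those of a few examples and are not a result about the elements.

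The 1504 peaks lay in 1404 regions once overlapping peaks were merged, and their nearest starts belonged to 1293 genes. Arm 2L held 322 of them, 2R 389, 3L 351, 3R 440 and the small chromosome 4 held 2. Within the 4 large arms, 69.1 to 73.0% of promoter peaks were one-strand peaks, so no arm stood out. The next start on the other strand was a median of 3164 bp away, and 278 of the 1504 had one at 501 to 1000 bp. A second class, called divergent here, holds the 602 peaks off the X with starts of both strands within 500 bp. Another 1310 peaks off the X had no start within 500 bp, and 245 one-strand promoter peaks lay on the X.

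Summits clustered around the nearest transcript start. The median position was -17 bp (quartiles -110 and 64 bp, negative values upstream), with 833 summits upstream, 9 at the start and 662 downstream. The 95% interval of the median, from order statistics of the peaks, was -24.0 to -9.00 bp. Measured to the main start of the gene in place of the nearest start, the median turned to 18 bp downstream (5 to 29.0). Of all 1504, 809 (53.8%) lay within 100 bp of the start and 82.6% within 250 bp. The summits of the overlapping replicate peaks had a median position of -20.5 bp in replicate 1 and -18.0 bp in replicate 4. Replicate summits of the same peak lay a median of 33 bp apart (quartiles 14 and 78 bp).

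**Figure D1:**
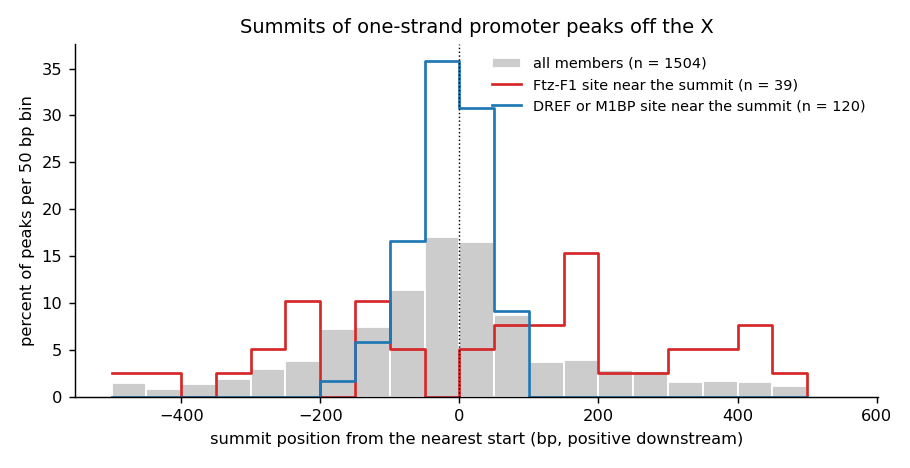
Position of the summit from the nearest start, in bp and positive downstream, as the percent of peaks in each 50 bp bin. Grey bars are all 1504 peaks, the red line the 39 with a Ftz-F1 site and the blue line the 120 with a DREF or M1BP site within 100 bp of the summit. The blue line is narrow around the start, with 111 of 120 within 100 bp, and the red line is broad, with 7 of 39.

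Summits fell in different parts of the gene model on the 2 sides of the start. A total of 582 (38.7%) lay in untranslated or non-coding exons, 437 (29.1%) between genes, 391 (26%) in introns and 94 (6.25%) in coding exons. Intronic summits had a median position of -82.0 bp, so most of them lay upstream of an internal start and inside a longer transcript of the same or another gene. A further protein-coding gene covered the summit in 71 cases on the same strand and in 94 on the opposite strand.

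Distance to the start went with signal. The peaks were cut into 4 equal groups by the authors' pooled signal value. In the strongest group 173 of 376 summits (46%) lay within 100 bp of the start, against 222 of 376 (59%) in the weakest. The difference was -13 percentage points (95% Newcombe interval -20.0 to -5.90). Divergent peaks lay closer, at 80.4% within 100 bp, and the difference of -26.6 points (-30.5 to -22.4) is partly built in, since more annotated starts lie near a divergent summit. All such intervals cover counting error only, since neighbouring peaks share chromatin and libraries and are not replicates of a condition.

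Many of the genes had more than 1 annotated start. Of the 1504 peaks, 658 (43.8%) had a nearest start in a gene with a single start and 846 in a gene with more. Among the protein-coding genes that own a nearest start, 662 of 1207 (54.8%) had more than 1 start, compared with 2353 of the other 10542 off the X (22.3%), a difference of 32.5 points (29.6 to 35.4). A gene with more starts also offers more places for a peak, and the share of genes with a one-strand promoter peak rose from 6.47% of 8734 genes with 1 start to 16.8% of 2123 with 2, 28.2% of 542 with 3 and 49.7% of 350 with 4 or more.

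The main start, taken as that of the transcript Ensembl marks as canonical, was nearest about as often as its share among annotated starts. It was the nearest start in 323 of the 846 peaks (38.2%, 35.0 to 41.5), and the mean share of starts that are main in these genes was 37.1%. That mean counts all distinct starts of a gene alike, however close together, so it is a rough baseline. The window of 500 bp held the main start alone in 201 cases, main and alternative starts in 247, and alternative starts alone in 398 (47.0%). Signal values were close in these classes, with medians of 132 at main starts alone, 135 at both, 128 at alternative starts alone and 132 in genes with a single start.

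Several genes carried peaks at more than 1 of their promoters. A total of 173 genes were nearest to 2 or more peaks and 30 to 3 or more. Eip75B, an early ecdysone gene that encodes a nuclear receptor, held 7 peaks at 5 of its 7 starts, with signal values of 97.1 to 250. The splicing regulator ps held 5 at 5 of 6 starts, and shot, which links actin to microtubules, 4 at 3 of 4 starts. Ald1 held 3 at 3 of its 5 starts, with signal values of 95.4 to 355, and Pgk 3 at 2 of its 5 starts, at 94.5 to 700. Not all such peaks are separate in the replicates, since 206 of the 1504 overlapped a replicate 1 peak that another of them also overlapped, and 209 did so in replicate 4.

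The elements near the summit differed between peaks at alternative starts alone and all other one-strand peaks, most of which lay in genes with a single start. A GAGA site lay within 100 bp of 101 of the 398 summits near alternative starts alone (25.4%) and of 13.6% of the other 1106, a difference of 11.8 points (7.25 to 16.7). The M1BP site went the other way, with 3 of 398 (0.754%) against 5.61%, a difference of -4.85 points (-6.45 to -2.97). At the 201 summits near main starts alone, the GAGA share was 17.9% (13.2 to 23.8) and the M1BP share 5.97% (3.45 to 10.1). The DREF site was at 2.26% of the alternative-only summits and 4.61% of the others, but at only 0.995% of the summits near main starts alone and at 6.23% of those in genes with a single start. The Ftz-F1 site was at 3.02% of the alternative-only summits and 2.44% of the others, and the interval of that difference ran from -1.11 to 2.88 points.

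CAAGGTCA was rare at these summits. It was found on either strand within 100 bp of 39 of the 1504 (2.59%, 1.90 to 3.53). The share was 4.02% over the whole IDR list, 6.41% at peaks without a start within 500 bp and 1.66% at divergent peaks. It was 0.988% at the 6071 one-strand promoter peaks off the X that the pooled list holds below the IDR list, 1.60 points lower than at the 1504 (0.859 to 2.56). Among the 1504, it was near 4.26% of the strongest 376 peaks and 2.13% of the weakest 376, and the interval of that difference ran from -0.457 to 4.88 points. With the shorter AAGGTCA, which contains every CAAGGTCA, the count was 76 (5.05%), and 9.57% of the strongest 376 peaks held it compared with 3.19% of the weakest 376 (difference 6.38 points, with an interval from 2.93 to 10 points). A match is a description of the letters in the window, and no match does not tell whether Ftz-F1 binds there.

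The 39 peaks with CAAGGTCA lay away from the start. Only 7 summits (17.9%) were within 100 bp, against 802 of the 1465 others (54.7%), a difference of -36.8 points (-46.1 to -21.9). Their median distance from the start was 198 bp, compared with 84 bp for the rest, and their median signal value was 157, compared with 131. The site itself lay a median of 46.5 bp from the summit, in a search bounded at 100 bp. For the DREF, M1BP, TATA, initiator, GAGA and E-box elements the same medians ran from 29 to 46.5 bp. The distance therefore does not mark the Ftz-F1 site as centred on the summit. It pointed along the gene in 23 of 39 (59%), with an interval from 43.4 to 72.9% that includes 50%. None of the 39 held a DREF or an M1BP site, beside 3.99% and 4.32% of all the one-strand peaks. At such low shares, 39 peaks are too few to tell whether the sites avoid each other.

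Pgk had the highest signal value among them at 700, with rank 64 in replicate 1 and rank 31 in replicate 4. AGO1, the Argonaute protein of the microRNA pathway, followed at 586 with ranks 68 and 63, and Rac2 at 580 with ranks 66 and 70. In these 3 the replicates placed the peak within the strongest 100. Further down, Got2, a mitochondrial aspartate aminotransferase, had a signal value of 231 with ranks 2838 and 261, so replicate 1 ranked it far lower. The value of ACC, the acetyl-CoA carboxylase of fatty acid synthesis, was 158 with ranks 983 and 2308. That of Pdhb, a subunit of pyruvate dehydrogenase, was 134 with ranks 1496 and 1606.

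**Figure D2:**
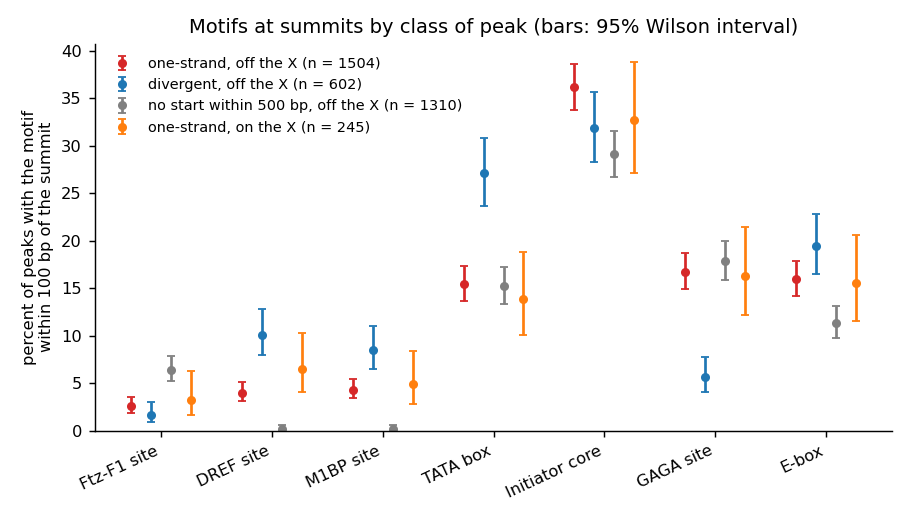
Percent of peaks with each element within 100 bp of the summit, for 4 classes of the IDR list. Points are shares and bars 95% Wilson intervals. One-strand peaks off the X lie below divergent peaks for DREF, M1BP and TATA, above them for GAGA, and far below peaks without a start for the Ftz-F1 site.

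Promoter elements of broadly active genes were near a small share of the summits. DREF sites lay near 60 (3.99%), beside 3.79% over the whole IDR list, and M1BP sites near 65 (4.32%), beside 3.43%. Divergent peaks had more of both, with 10.1% and 8.47%. The differences were -6.14 points for DREF (-8.95 to -3.71) and -4.15 points for M1BP (-6.81 to -1.87). Among the stronger 1980 peaks of the IDR list the M1BP difference was -2.38 points, with an interval from -5.90 to 0.444 that includes 0. Divergent summits lay closer to starts, and the part of this in the differences was not tested. In windows of the same width around the main protein-coding starts of both classes, the DREF difference was -4.06 points (-8.01 to -0.442). The M1BP difference around those starts was -3.01 points, with an interval from -6.65 to 0.266 that includes 0. Peaks with these elements sat tightly on the start, with 54 of the 60 DREF peaks and 62 of the 65 M1BP peaks within 100 bp of it. Only 2 of the 1310 peaks without a start held a DREF site, and 2 an M1BP site.

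The GAGA site was the reverse. It lay near 251 summits (16.7%), compared with 15.7% over the IDR list, 5.65% at divergent peaks and 17.9% at peaks without a start. The difference from divergent peaks was 11 points (8.24 to 13.6). GC content moves with these classes, with a median of 47.8% in the 201 bases around one-strand summits and 41.3% around divergent ones. With the IDR list cut into 4 equal groups by GC content, the GAGA difference was 9.82, 7.67 and 9.95 points in the 3 lower groups, with intervals above 0, and 2.57 points in the highest (-10.6 to 12). The DREF difference had an interval below 0 in the 2 middle groups, the M1BP difference in the second alone and the TATA difference in the first alone.

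TATAAA lay near 15.4% of the summits, beside 17.1% in the whole list, and TCAGT near 36.2%, beside 32.3%. CAGCTG lay near 16%, beside 14.5%. These shares are near the background of the list. A total of 1110 of the 1504 peaks (73.8%) had none of the Ftz-F1, DREF, M1BP and GAGA sites within 100 bp.

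The starts themselves were also compared, at the 838 main protein-coding starts nearest to a one-strand peak and at 7255 other main starts off the X with neither an IDR summit nor a start of the other strand within 500 bp. In the 201 bases around the start, DREF sites were in 9.55% and 4.04%, a difference of 5.51 points (3.64 to 7.73). M1BP sites were in 7.88% and 2.88% (5 points, 3.31 to 7.05) and GAGA sites in 14.7% and 8.90% (5.77 points, 3.44 to 8.41). E-boxes were in 18.1% and 10.9% (7.24 points, 4.67 to 10.1). TATAAA was in fewer, with 17.5% and 31.9% (-14.3 points, -17 to -11.4). CAAGGTCA was in 0.597% and 0.234%, and the interval of the difference ran from -0.00703 to 1.16 points. AAGGTCA was in 1.91% and 1.01% (0.903 points, 0.129 to 2.09). The median GC content was 46.5% at the peak starts and 41.8% at the others, and its part in these differences was not tested.

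The order of the groups was not the same for elements at their usual place. The initiator core was in 45.1% of the 201-base windows at starts with a peak and 46.9% of those without, and the interval of the difference ran from -5.27 to 1.83 points. An initiator core with its A within 5 bp of the start was at 17.8% of the starts with a peak and 12.5% of those without, and at 5.90% of the starts of divergent peaks. For the first pair the difference was 5.26 points (2.70 to 8.10). A TATA box beginning 36 to 26 bp upstream was at 2.51%, 8.31% and 0.454% of the same 3 groups, whereas in the whole window TATAAA was at 17.5%, 31.9% and 22.0%. Among one-strand summits with an M1BP site, 66.2% held it in the direction of the gene, and 68.9% of those with an initiator core.

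**Figure D3:**
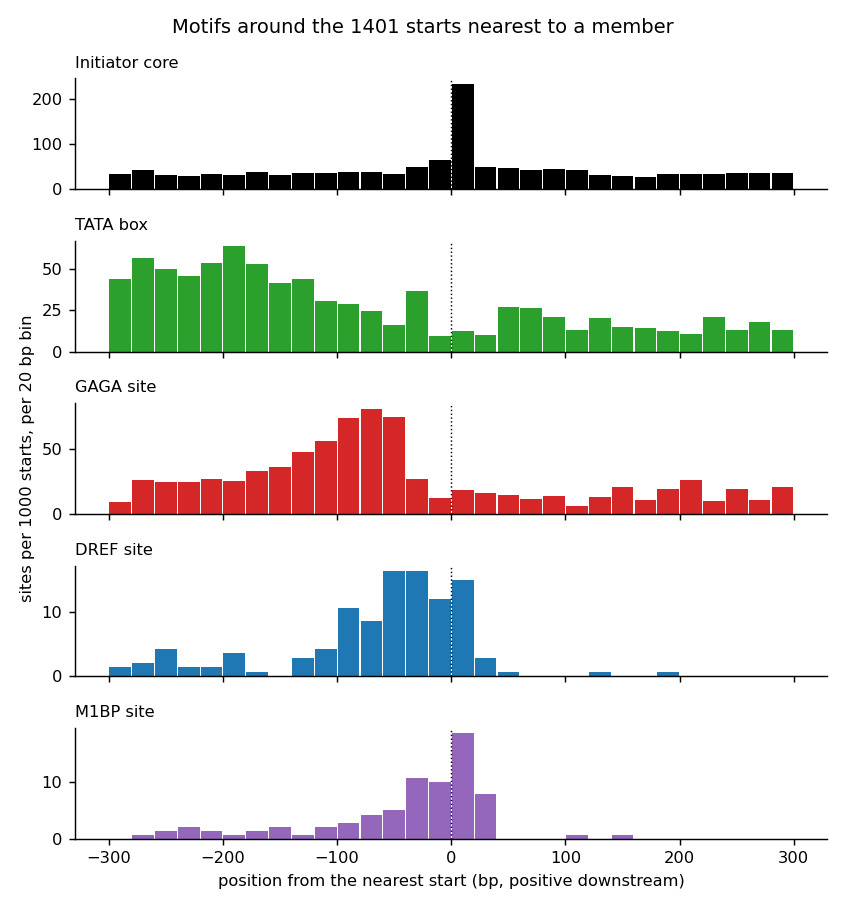
Sites per 1000 starts in 20 bp bins around the 1401 starts nearest to a one-strand peak, by position in bp from the start. The initiator core stands up in the bin that begins at the start, GAGA sites in the bins 40 to 100 bp upstream, and DREF and M1BP sites between about 100 bp upstream and 40 bp downstream.

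The genes were grouped by 22 lists of symbols, and a gene was counted where a one-strand summit lay within 500 bp of any of its starts. Over all 11749 protein-coding genes off the X, 1248 (10.6%) had such a peak, and each list is read beside that share. Shares were highest in glycolysis, nuclear receptors, translation factors, the insulin and TOR pathway and the patterning lists. In 4 lists no gene had a one-strand peak.

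Glycolysis had 6 of 12 genes (95% Wilson interval 25.4 to 74.6%). These were Pgk, Ald1, Eno, Pfk, Tpi and Pgi, which act in successive and in separate steps of the pathway. The strongest peak of Ald1 had a signal value of 355 with ranks 155 and 319, that of the enolase gene Eno 268 with ranks 295 and 559, and that of the phosphofructokinase gene Pfk 250 with ranks 368 and 757. The triosephosphate isomerase gene Tpi was at 224, with ranks 292 and 1880. The glucose phosphate isomerase gene Pgi was weakest at 108, with ranks 5188 and 1871. Of these 12 genes, 10 had more than 1 start, and all 6 with a peak were among those 10. Of all genes with more than 1 start, 22.7% had a peak.

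Nuclear receptors had 7 of 19 genes (36.8%, 19.1 to 59.0): ftz-f1, Hr39, svp, Eip75B, ERR, Eip78C and Hnf4. A summit at -155 bp from the upstream-most start of ftz-f1 reached a signal value of 1929, with ranks 5 and 6. An annotated long non-coding RNA, lncRNA:CR45939, starts 3 bp nearer to that summit on the same strand, so the peak cannot be given to 1 of them. The number of copies of ftz-f1 sequence in the tagged line is not given in the sources used here. Hr39, the closest relative of Ftz-F1 in the fly, followed at 330 with ranks 349 and 208, and svp at 311 with ranks 339 and 306. ERR, the estrogen-related receptor, was at 152 with ranks 1253 and 2001. Hnf4, a receptor of lipid metabolism, was at 105 with ranks 3141 and 2556. In this list 1 of 8 genes with a single start and 6 of 11 with more had a peak. Ecdysone-induced genes other than receptors had 3 of 32, Eip63E, Eip74EF and Kr-h1 (9.38%).

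Homeodomain patterning genes had 13 of 47 (27.7%, 16.9 to 41.8). The strongest were Dfd, at a signal value of 299 with ranks 307 and 390, the segment polarity gene en, at 240 with ranks 964 and 357, and vvl, at 207 with ranks 1335 and 585. The heart gene tin was at 142, with ranks 6643 and 879, so replicate 1 placed it outside its strongest 3960 peaks. The limb gene Dll was at 132 with ranks 2295 and 2142, and the posterior gene cad at 113 with ranks 4286 and 2192. Genes with a single start had a share of 8 of 31 (25.8%), beside 6.47% of all single-start genes. Signalling ligands and receptors of patterning had 9 of 34 (26.5%), led by the Wnt receptor gene fz at 581 with ranks 56 and 83, and with wg itself at 140 with ranks 2053 and 2056.

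Translation factors had 14 of 46 (30.4%, 19.1 to 44.8) and cytoplasmic ribosomal proteins 17 of 76 (22.4%, 14.5 to 32.9). The RNA helicase gene eIF4A led the first at a signal value of 814 with ranks 53 and 22. Of the translation factors, 4 of 26 genes with a single start (15.4%) and 10 of 20 with more had a peak. RpL30 led the ribosomal proteins at 293 with ranks 539 and 246. A further 21 ribosomal protein genes (27.6%) had a divergent promoter peak and no one-strand peak, beside 8.52% of all genes. The insulin and TOR pathway had 6 of 20 (95% Wilson interval 14.5 to 51.9%), with the receptor gene InR at 257 with ranks 696 and 419, the transcription factor gene foxo at 187 with ranks 783 and 1315, and Thor, an inhibitor of cap-dependent translation, at 142 with ranks 1010 and 3692. In that list 1 of 13 genes with a single start (7.69%) and 5 of 7 with more had a peak, beside 6.47% and 22.7% of all genes.

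Several other lists of broadly active genes were near the background or below it. The respiratory chain had 8 of 77 (10.4%), RNA polymerase II and its general factors 6 of 55 (10.9%), the proteasome 3 of 42 (7.14%), aminoacyl-tRNA synthetases 1 of 30 (3.33%) and mitochondrial ribosomal proteins 2 of 63 (3.17%). The last list had 17 genes with a divergent peak only. None of 42 spliceosome genes had a one-strand peak, and 9 had a divergent one. Among the lists named so far in this paragraph, the highest value was 626, with ranks 54 and 58. It was that of Taf1, a subunit of the factor TFIID that binds core promoters. The cell cycle list had 8 of 45 (17.8%), with Cdk12, a kinase of transcription elongation that the list took by its symbol, at 248, E2f1 at 174 and its partner Dp at 172. Nuclear pore and transport genes had 5 of 28 and vesicle traffic genes 5 of 28 (17.9% each), endoplasmic reticulum genes 3 of 20 (15%) and cytosolic chaperones 4 of 29 (13.8%). The shares of these lists and of the cell cycle list were above the background of 10.6%, with Wilson intervals that included it. No one-strand peak was found at the starts of 45 synaptic, 123 cuticle or 155 chemoreceptor genes. The upper ends of the Wilson intervals were 7.87%, 3.03% and 2.42%. Of the chemoreceptor genes, 1 had a divergent peak.

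**Figure D4:**
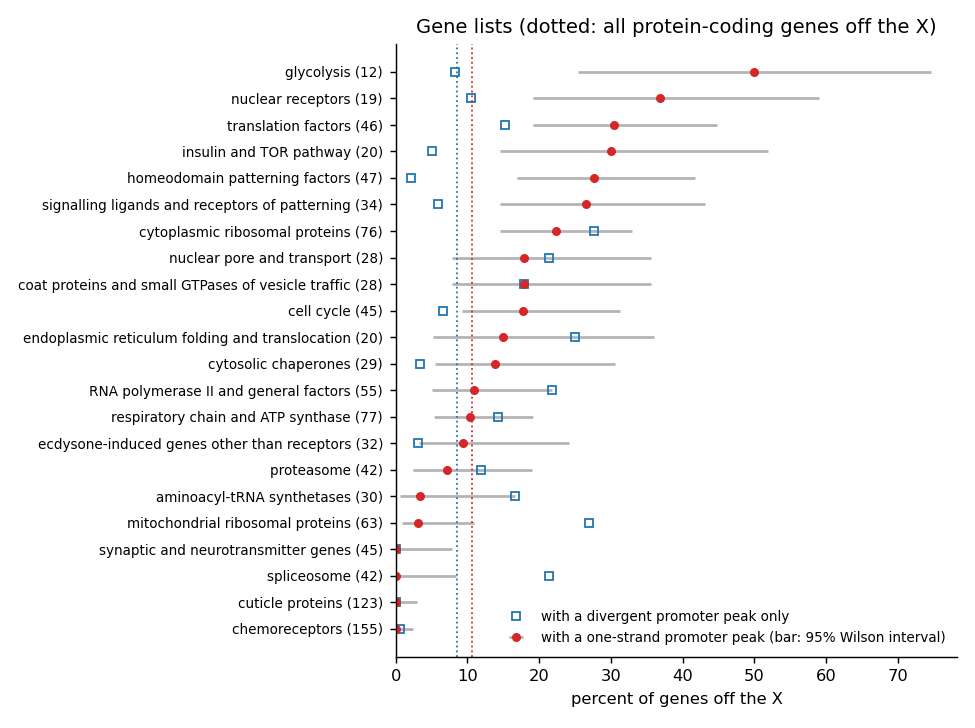
Percent of the genes of each list off the X with a one-strand promoter peak (red points, bars are 95% Wilson intervals) or with a divergent promoter peak only (blue squares), with the number of genes in brackets. Dotted lines mark all 11749 protein-coding genes, 10.6% in red and 8.52% in blue. Homeodomain genes lie far right in red and left in blue, and mitochondrial ribosomal proteins the other way round.

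The place of the summit also differed among the lists. In homeodomain genes, 11 of the 13 strongest summits lay more than 100 bp upstream of the nearest start of the gene, with a median of -161 bp, and in nuclear receptors 5 of 7, with a median of -140 bp. Over all 1504 peaks this was 405 (26.9%). In translation factors all 14 lay within 100 bp, with a median of 2 bp, and in cytoplasmic ribosomal proteins 14 of 17 did, with a median of 17 bp, beside 53.8% of all the peaks. The list values use only the strongest summit of each gene, measured to that gene's starts, whereas the shares over all 1504 include weaker peaks. Stronger peaks lay within 100 bp of the start less often, as given above, so the comparison is not like for like. The lists are small and were not tested.

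Signal at one-strand promoters was like that of the other classes. The median signal value was 131 (quartiles 108 and 183, range 91.8 to 2093), compared with 135 at divergent peaks and 132 at peaks without a start. The strongest 990 peaks of the IDR list held 24.7% of them. The 15 strongest included 4 at non-coding genes. lncRNA:CR44867 on 2L was first with a signal value of 2093 and ranks 7 and 2, and its neighbour lncRNA:CR44868 reached 785 with ranks 32 and 28. The peak with the value of 1405, ranked 8 and 9, had its summit 358 bp downstream of the first base of tRNA:Ala-TGC-2-1, which is longer than a tRNA gene.

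Among protein-coding genes, Der-1, which acts in degradation of proteins of the endoplasmic reticulum, was strongest at a signal value of 1290. Its summit (2L, 1974090) lay at -22 bp, and it ranked 11 in replicate 1 and 8 in replicate 4. Rcc1, which loads the GTPase Ran, had a summit (3L, 5932632) at -20 bp, an M1BP site, a signal value of 1030 and ranks 20 and 13. Glyp, the glycogen phosphorylase gene, had a summit at -465 bp, near the edge of the window, with a signal value of 798, ranks 26 and 38, and AAGGTCA as well as a GAGA site. Below it were Ets21C, an ETS transcription factor gene, at 733 with ranks 91 and 24, PNPase, which encodes an exoribonuclease of mitochondria, at 713 with ranks 43 and 40, the glutathione transferase gene GstE13 at 706 with ranks 30 and 51, and the kinase gene hppy at 702 with ranks 95 and 26. CG3420 had 819 with ranks 29 and 27, and CG12402 785 with ranks 23 and 50. All of these were within the strongest 100 peaks of both replicates.

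**Figure D5:**
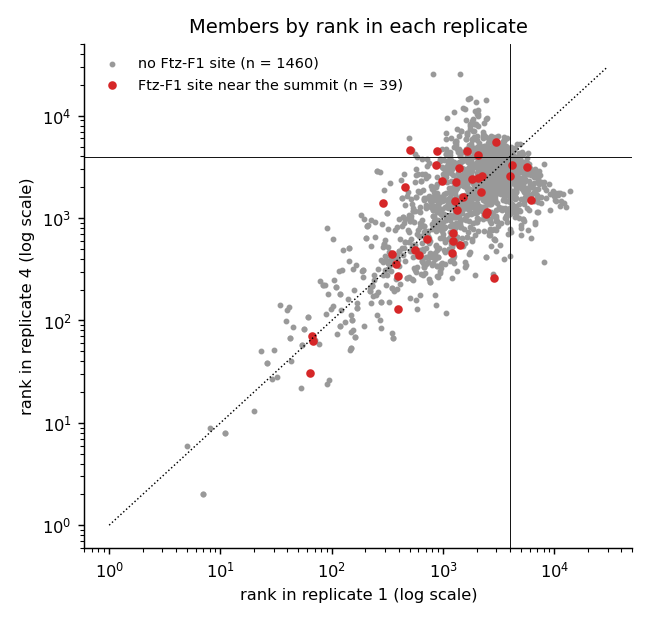
Rank of each one-strand peak in replicate 1 (horizontal) and replicate 4 (vertical), both on log scales, with rank 1 the strongest. Red points have a Ftz-F1 site, solid lines mark rank 3960 and the dotted line equal ranks. Strong peaks lie along the dotted line, and the spread widens among weaker peaks.

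Peaks of high pooled signal were mostly among the strongest of both replicates, and peaks of low signal less often. This order is in part built in, since the pooled list was made from the same replicates. A total of 1059 peaks (70.4%) overlapped one of the strongest 3960 peaks of each replicate, beside 69.7% of the whole IDR list and 71.3% of divergent peaks. In the 4 equal groups by signal the share was 99.5%, 92%, 66.8% and 23.4% from strongest to weakest, and 18 peaks were among the strongest of neither replicate. Spearman's rho between the ranks was 0.528 over the 1499 peaks found in both lists, which share antibody, strain and in part the same replicate peaks. All of these peaks had been selected by their pooled signal.

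The widest gap was at cnc, which encodes a leucine zipper factor of head development and stress response, with rank 803 in replicate 1 and rank 25748 in replicate 4. Glyat had ranks 1420 and 25352, Nct, a component of gamma-secretase, 1749 and 14834, and CG6908 1659 and 14646. The other way round, dpr10, a cell surface protein of the immunoglobulin family, had ranks 13845 and 1825. The signal values of these peaks, 91.8 to 113, were in the lower part of the list.

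Base composition moved with the order of the replicates. One-strand peaks were ranked better in replicate 1 in 46.4% of cases and divergent peaks in 58.4%, a difference of -12 points (-16.6 to -7.25). In the 4 groups by GC content, from low to high, the share went among one-strand peaks from 67.1% to 57.3%, 44.3% and 22.8%, and among divergent peaks from 69.3% to 60.7%, 38.1% and 21.6%. Within each of these groups the interval of the difference between the classes included 0. Single ranks given above therefore carry a replicate difference that tracks GC content.

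The 40 peaks with a summit 451 to 500 bp from the start had a median signal value of 140, and the 33 peaks at 501 to 550 bp one of 116. The 191 one-strand peaks off the X among the first 500 pooled peaks below the IDR list had a median of 88.2, and the 191 weakest in the list one of 95.1. The order of these last medians is built in, since the IDR list holds the strongest 3960 pooled peaks.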

How the data were processed

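Peak lists of 2 biological replicates and of both pooled were deposited, each with 30000 entries that hold peaks and background as input to IDR, together with the thresholded list that the authors derived from them, per the listing of files that came with the samples. The aligner, the caller, the control, the IDR threshold and read depth are not stated in the sources used here. The authors deposited a signal value without its scale, which served here to rank and describe peaks. Positions are dm6, 1-based, and the summit is the one in the deposited list.

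Sequence came from the release 6 assembly and starts from Ensembl release 115 (BDGP6, version 54), without transposable elements. Sites were sought on both strands within 100 bp of the summit. A replicate rank is that of the strongest replicate peak overlapping by at least 1 bp. Overlapping elements were counted once per peak, and DREF and CAGCTG read alike on both strands. Among the 4 peaks with AAGGTCA and GGTCACACT, none held both on the same bases. Shares carry 95% Wilson intervals, differences Newcombe intervals, and 61 differences were computed. No p-values were computed, and nothing in the labels says that the replicates came from separate fly cultures. Members, lists and motifs were chosen with earlier results of these data known. Named genes are the 15 strongest, up to 3 per list, the 5 with the widest gap between replicate ranks and the 5 whose worse rank is best. Further genes were chosen after their values were seen (all of glycolysis and nuclear receptors, tin, Dll, cad, wg, peaks with CAAGGTCA and genes with several peaks). Alternatives were other windows, motifs, start sets, overlap rules, stronger or merged peaks and each replicate alone. The scripts were tested on simulated starts, peaks and sites. Python 3.11.15, numpy 2.4.6, pandas 2.3.3, scipy 1.17.1 and matplotlib 3.10.9 were used.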

Additional observations from a re-analysis of the deposited data

How the results depend on the processing

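Of 103 recomputed values, 83 were counted as unchanged. A share or median had to stay within the interval of the reported value, and a count within 1.5 times. A difference had to keep its sign, and its interval had to include or exclude 0 as before. It could leave the reported interval. With a window of 250 bp the difference from divergent peaks in the share ranked better in replicate 1 was -16.9 points, outside -16.6 to -7.25. The median position of the summit was -25.0 bp with a window of 1000 bp, and it turned to 18 bp when measured to the main start of the gene. The DREF share was 2.99% with the window of 1000 bp. Taking the stronger 1980 peaks of the IDR list left 750 peaks, 71 list genes, a median signal value of 183, 95.7% in the strongest peaks of both replicates and CAAGGTCA in 3.6%. In that set the M1BP difference from divergent peaks was -2.38 points, with an interval from -5.90 to 0.444. Requiring an overlap of at least 0.5 of both peaks gave 52.9% in place of 70.4%. With a motif window of 50 bp the Ftz-F1, DREF and M1BP shares were 1.33%, 1.99% and 2.73%, and with 200 bp 3.72%, 6.72% and 5.85%. AAGGTCA was near 5.05% of summits and TCAAGGTCA near 0.864%. With the strongest 3960 peaks of replicate 1 alone and of replicate 4 alone, in this order, the number of peaks was 1447 and 1525, the median position -21.0 and -13 bp, the main start share 38.4 and 39.7%, the Ftz-F1 share 2.56 and 2.49%, the DREF share 5.6 and 3.15%, the M1BP share 4.63 and 3.28% and the list genes 112 and 126. The cause of these shifts was not tested. Signal values of single replicates are on their own scale and were not set beside the pooled median. The differences between classes were chosen after seeing the data. No paired analysis was possible because there is 1 group.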

Other observations

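Non-coding genes supplied few nearest starts. A total of 80 peaks (5.32%) had a long non-coding or other ncRNA start nearest, although such genes make up 18.1% of annotated genes off the X, and 5 had a tRNA, 4 a snoRNA and 3 a snRNA. Their median signal value was 142 for the ncRNA starts, compared with 131 for protein-coding starts. Genes known only by a CG number had a one-strand peak in 327 of 5072 cases (6.45%), beside 10.6% of all protein-coding genes off the X.

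One-strand promoter peaks on the X were like those on the autosomes in their shares of elements, but not in replicate order. Their median position was -49.0 bp, with 48.6% within 100 bp of the start, beside -17 bp and 53.8% off the X. No interval was computed for these 2 differences. They held CAAGGTCA in 3.27%, GAGA sites in 16.3% and DREF sites in 6.53%. For these elements the intervals of the differences from the autosomal peaks all included 0. They were ranked better in replicate 1 less often, in 36.6% compared with 46.4%, a difference of 9.81 points (3.10 to 16.1). The median GC content was 47.8% in both classes, and the cause of this difference was not tested.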
